A study of Drosophila melanogaster with 4 samples.

Results

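The comparison set the kdm5 mutant library against the wild type library from flies fed paraquat, with 1 library on each side. Its members were all genes that reached an RPKM of at least 1 in either of those libraries, where RPKM is the number of uniquely mapped reads scaled to gene length and to the total reads of the library. Of 12073 gene identifiers seen in any of the 4 libraries of the study, 8487 met that minimum. All libraries were made from entire Drosophila melanogaster females, 1 to 3 days into adult life, with RNA extracted from groups of 5 flies and selected for poly-A. The wild type was w1118, and the mutant, also in w1118, had the kdm5 genotype written kdm5K6801/10424. Both libraries of the comparison came from flies fed 20 mM paraquat in 5% sucrose for 6 hours. The same genotypes fed 5% sucrose alone for 6 hours are called the control pair below, and they share no library with the paraquat pair. The labels do not say how the alleles were brought into the w1118 background, so the kdm5 mutation and any other difference between the 2 stocks cannot be told apart.

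KDM5, known in flies as Little imaginal discs, is the histone demethylase that removes methyl groups from lysine 4 of histone H3, a mark found at the promoters of active genes. Besides its enzyme domain it carries reader domains that bind chromatin, and it can both repress and activate genes. Paraquat is a herbicide that cycles between oxidised and reduced forms inside cells and so generates superoxide. In flies it is a standard way to impose oxidative stress, and a feeding fly takes it up through the gut.

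The libraries held 27.9 M to 29.1 M reads over genes. The mitochondrial large ribosomal RNA took 11.5% of reads in the wild type paraquat library and 12.9% in the mutant paraquat library. At this depth 3 reads in a gene of 1 kb correspond to 0.103 to 0.107 RPKM, which was used as the floor for absence. With 1 library per group there is no replicate check and no test. Fold changes are ratios of RPKM with exact Clopper-Pearson 95% intervals from the reads, which cover counting error only. A gene was called higher or lower in the mutant when log2(RPKM + 1) differed by at least 1 between the libraries, and all differences below are mutant minus wild type on that scale, which understates the change of genes near 1 RPKM.

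Kdm5 itself (FBgn0031759, chromosome 2L, 5989400 to 5999501 on the minus strand of BDGP6) checked the labels. It had 22.5 RPKM in the wild type and 2.03 in the mutant under paraquat, beside 43.4 and 2.06 in their controls. Under paraquat it was 11-fold lower in the mutant (95% interval 10.2 to 12), from 6521 wild type and 594 mutant reads, so its RNA was reduced but not lost. Reads covered 57.4% of the gene's length in the mutant and 78.0% in the wild type. The level of Kdm5 RNA in the mutant was almost the same with and without paraquat. The nearest annotated genes on either side, ifc and Tsp26A, differed by 0.18 and −0.71, neither past the size rule, and Tsp26A overlaps another annotated gene. Within 100 kb on each side, 33 other genes reached the minimum, with a median difference of 0.10. Of these 1 was higher and 0 were lower, near the 5.00% called over all genes. The other members of the list of 7 histone lysine demethylases at the minimum were not past the rule.

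Under paraquat 195 genes (2.30% of those tested) were higher in the mutant and 229 (2.70%) were lower, 424 (5.00%) in all. The median difference of all genes was 0.08, with quartiles of −0.17 and 0.29, and 81.1% of genes lay within 0.5 of equality. Differences of at least 2 on the log2 scale were found for 42 genes higher and 44 genes lower. The genes called were found at all levels of expression. They made up 6.74% of the 2239 genes with a mean RPKM under 5 and 3.76% of the 3808 genes between 5 and 20. Among the 440 genes with a mean RPKM of 100 or more, 8 were higher and 27 were lower. No counting interval of a gene called higher or lower included equality. The genes were chosen by size from the same reads, which nearly fixes this, so it is no separate support. The whole interval lay beyond a 2-fold change for 176 of the 195 and 211 of the 229. Of the genes called, 56 higher genes reached the minimum only in the mutant library and 64 lower genes only in the wild type library. The genes nearest the minimum of 1 RPKM were Gpa2, Eip74EF and snoRNA:Psi18S-301 just inside it and Pdzd8, Cyp318a1 and Raf just outside it.

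**Figure D1:**
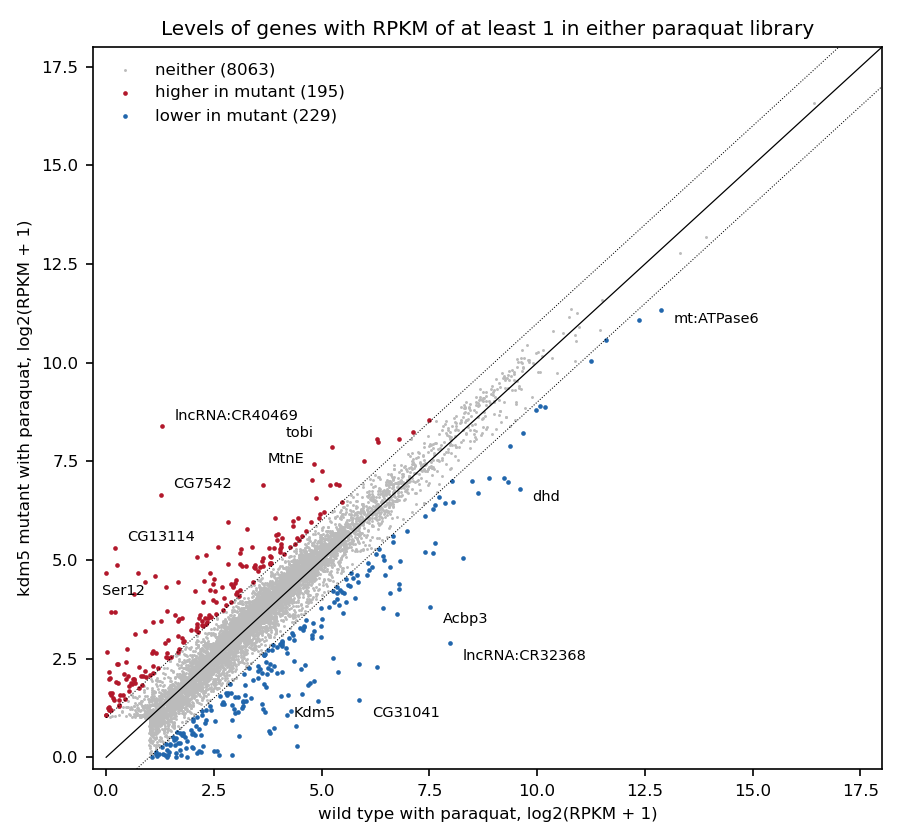
Each point is a gene, with log2(RPKM + 1) in the wild type paraquat library on the x axis and in the kdm5 mutant paraquat library on the y axis. The solid line marks equality and the dotted lines the size rule of 1. The 195 genes in red were higher and the 229 in blue lower in the mutant, and they lie at all levels.

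The control pair was used to ask which of these genes also differed between the genotypes without stress. In the control pair 548 genes (6.55%) were higher and 481 (5.75%) were lower, 1029 (12.3%) of 8364 genes in all. Fewer genes thus passed the rule in the paraquat pair than in the control pair. With 1 library a side, whether the genotypes differ less under paraquat was not tested. The SD of the difference across genes was 0.53 with paraquat and 0.73 without. The median difference of all genes was 0.08 with paraquat and −0.19 without. Medians of gene lists in the 2 conditions below thus have different baselines. Of 8240 genes at the minimum in both pairs, 187 were higher under paraquat, and 135 of them (1.64% of the 8240) were also higher in control. These 135 were 72.2% of the genes higher under paraquat and 25% of the 540 higher in control. Of the 216 genes lower under paraquat, 87 (1.06% of the 8240) were also lower in control. These 87 were 40.3% of the genes lower under paraquat and 19.0% of the 459 lower in control. Among all 8240 genes, 6.55% were higher in control and 5.57% were lower. Taken over genes, none of which is a replicate of another, the differences in the 2 conditions had a Pearson r of 0.33 and a Spearman rho of 0.07, so the relation lay in the extremes and not in the bulk of genes.

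**Figure D2:**
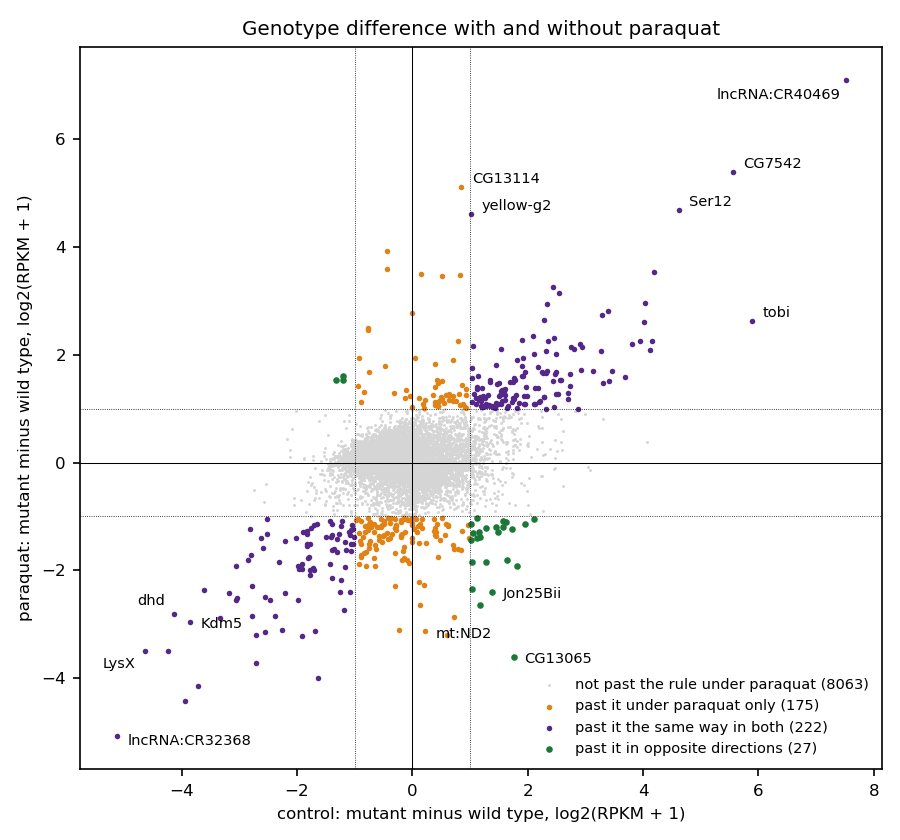
Each point is a gene, with the mutant minus wild type difference of log2(RPKM + 1) in control on the x axis and under paraquat on the y axis, and dotted lines at the size rule of 1. The genes in purple, 222 in all, passed the rule the same way in both conditions, 27 in green passed it in opposite directions, and those in orange passed it under paraquat only.

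Of the genes called under paraquat and at the minimum in both pairs, 154 were not called in control, 49 of them higher and 105 lower. A gene chosen in this way will usually have 1 of the 2 paraquat libraries at an extreme, and the count says which. In 44 of the 49 higher genes the wild type fed paraquat was the lowest of the 4 libraries, and in 26 the mutant fed paraquat was the highest. In 96 of the 105 lower genes the wild type fed paraquat was the highest, and in 58 the mutant fed paraquat was the lowest. Opposite calls in the 2 conditions were made for 27 genes, and the wild type fed paraquat was at an extreme in 26 of them. Whether these genes respond differently to paraquat in the mutant cannot be tested with 1 library per group, and the values of the wild type paraquat library were not checked by any other library.

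The choice of the 222 genes called the same way in both conditions nearly fixes that the mutant libraries lie on one side of the wild type ones. The 135 higher genes had a median difference of 1.43 under paraquat and 1.91 in control, and 108 of them differed more in control. By that choice, in 131 of the 135 both mutant libraries lay above both wild type libraries. The 87 lower genes had a median difference of −1.81 under paraquat and −1.82 in control, and both mutant libraries lay below both wild type libraries in all 87. The gene furthest apart was lncRNA:CR40469 (FBgn0058469), a non-coding RNA gene of 214 bases on chromosome X (122493 to 122706 on the plus strand of BDGP6). It had an RPKM of 0.836 in wild type control, 1.45 in wild type paraquat, 334 in mutant control and 336 in mutant paraquat. The wild type paraquat library held 9 of its reads and the mutant 2093, a 231-fold difference with an interval of 122 to 506. Reads covered 52.8% of its length in each of these libraries, so the 2093 mutant reads lay on only part of the gene. CG7542 (FBgn0036738, chromosome 3L, 17549826 to 17550980 on the plus strand) encodes a predicted serine protease, and it had 1.41 (wild type) and 100.02 RPKM (mutant) with paraquat, against 2.11 and 146 without it. Under paraquat it was 70.9-fold higher in the mutant (50.6 to 103). Ser12, another serine protease gene, had no read in the wild type paraquat library and 606 in the mutant, at least 201-fold higher when 3 reads are taken as the floor, while the lower end of its counting interval is 163-fold. It had 0.0847 and 0 RPKM in the wild type without and with paraquat and 25.8 and 24.7 in the mutant. Both mutant libraries held these transcripts at similar levels while both wild type libraries held almost none.

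On the lower side, lncRNA:CR32368 (FBgn0052368, chromosome 3L, 7915437 to 7915846 on the plus strand) had 251 RPKM in the wild type and 6.46 in the mutant under paraquat, beside 265 and 6.63 in their controls. It was 38.8-fold lower in the mutant under paraquat (31 to 49.4). The germline thioredoxin gene dhd, deadhead (FBgn0011761, chromosome X, 5312171 to 5313125 on the plus strand), is required to unpack sperm chromatin in the fertilised egg. It had an RPKM of 2014 in wild type control, 775 in wild type paraquat, 114 in mutant control and 110.4 in mutant paraquat, and it was 7.02-fold lower in the mutant under paraquat (6.73 to 7.32). Although dhd was also lower in the wild type fed paraquat than in the wild type control, both mutant libraries lay far below both wild type ones. Acbp3, of the acyl-CoA-binding protein family, had 183 (wild type) and 13.1 RPKM (mutant) with paraquat, against 101 and 14.6 without it. Other genes far lower in both conditions, CG31041, CG12934, CG33109, CG10725 and CG42807, had differences under paraquat of −4.43, −4.14, −3.50, −2.88 and −3.22. The fatty acid desaturase gene Fad2, which makes the dienes of the female cuticular pheromones, was lowest in the mutant fed paraquat, with 59.1 and 37.2 RPKM in the wild type without and with paraquat and 25.4 and 4.74 in the mutant.

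**Figure D3:**
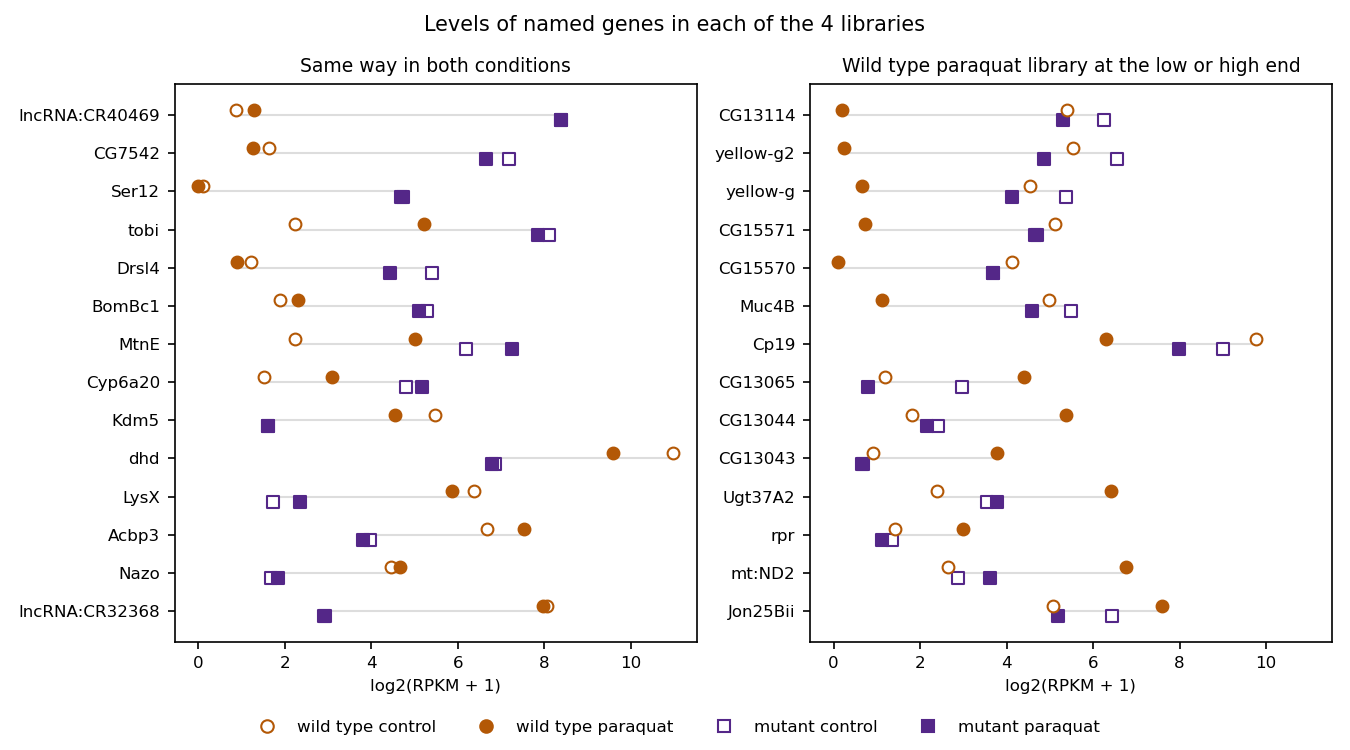
The level of 28 named genes in each of the 4 libraries as log2(RPKM + 1), with circles for wild type and squares for the mutant, open for control and filled for paraquat. On the left the mutant libraries lie together and apart from the wild type ones. On the right the wild type paraquat library lies at one end, for example at 0.15 RPKM for CG13114 against 38.7 in the mutant fed paraquat.

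Among immune genes, peptides made downstream of the Toll and Imd pathways were split. Of 16 Bomanins, drosomycins and related Toll peptides at the minimum, 7 were higher and 1 lower, beside 2.30% and 2.70% of all genes. Their median difference was 0.75 against 0.08 for all genes. The Bomanins are short secreted peptides that flies need to survive infection by fungi and Gram-positive bacteria. BomBc1 had 3.97 RPKM in the wild type and 33.7 in the mutant under paraquat, beside 2.69 and 37.9 in their controls, 8.49-fold higher in the mutant under paraquat (6.5 to 11.3). BomS5, BomS2, BomS1 and BomS4 were higher by 1.80, 1.78, 1.53 and 1.10, and by 1.90, 2.17, 1.78 and 1.94 in control. The other Bomanins at the minimum did not pass the rule. BomS6, BomT2, BomBc2, BomS3 and BomT3 differed by −0.52, −0.37, −0.19, 0.18 and 0.36. BomBc1, BomS1 and BomS4 are neighbours within 2208 bases of chromosome 2R. The drosomycin-like genes went both ways. Drsl4 had an RPKM of 1.33 in wild type control, 0.857 in wild type paraquat, 41.6 in mutant control and 20.5 in mutant paraquat. Drsl2 was higher by 1.57, with 4 reads in the wild type fed paraquat. Drsl3 had 13.8 (wild type) and 0.669 RPKM (mutant) with paraquat, against 14 and 1.57 without it. Drsl4 and Drsl3 thus differed in opposite directions, each in both conditions.

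Of 7 Imd-type antimicrobial peptide genes at the minimum, 2 were higher and 1 was lower, beside 2.30% and 2.70% of all genes. Their median was 0.43. Diptericin A, DptA, had 8.87 and 1.6 RPKM in the wild type without and with paraquat and 49 and 18.9 in the mutant, and it was 11.8-fold higher under paraquat (7.7 to 18.9). Drosocin, Dro, was higher by 1.24 under paraquat and differed by −0.04 in control. Attacin D, AttD, had 7.52 RPKM in the wild type and 0.462 in the mutant under paraquat, beside 12.3 and 0.604 in their controls, a level lower in both mutant libraries. Of 19 signalling genes upstream 1 was higher and 1 lower, with a median of −0.01, beside 5.00% called over all genes. The adaptor gene imd was higher by 1.03 and pirk, a negative regulator of the Imd pathway, was lower by 1.35. The imd gene overlaps GstE9. Of 8 peptidoglycan recognition protein genes 1 was lower, PGRP-SC1a (−1.11), from 52 reads in the wild type and 15 in the mutant.

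Other groups of defence genes had members lower in the mutant. Of 8 Turandot and JAK-STAT genes at the minimum 3 were lower and 0 higher, beside 2.70% and 2.30% of all genes. Turandots are small secreted proteins made by the fat body under severe stress. TotC had an RPKM of 26.7 in wild type control, 13 in wild type paraquat, 3.22 in mutant control and 0.522 in mutant paraquat. TotA had 26.4 (wild type) and 7.6 RPKM (mutant) with paraquat, against 31.4 and 17.2 without it. TotM was lower by 1.03. All 3 were lowest in the mutant fed paraquat. The one lysozyme gene at the minimum, LysX, encoding a gut enzyme that digests bacterial cell walls, had 81.9 and 57.1 RPKM in the wild type without and with paraquat and 2.32 and 4.15 in the mutant. Nazo and Srg3 are genes induced by the antiviral sensor STING in flies. Nazo had 24.6 RPKM in the wild type and 2.56 in the mutant under paraquat, beside 20.9 and 2.2 in their controls, and it was 9.58-fold lower under paraquat (7.25 to 12.9). Srg3 was lower by 2.52, Sting itself by 1.17, and Srg1 differed by −0.63, which did not pass the rule. These STING genes other than Nazo were chosen after their values were seen, and all 4 were also lower in control, by 2.77, 3.05, 1.71 and 1.29.

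Genes for digestion of starch and sugar lay above equality in the mutant. Of 15 at the minimum, 4 were higher and 0 lower, beside 2.30% and 2.70% of all genes. Of the 15, 14 were above 0, with a median of 0.59. In control the median was 2.24 and 11 were higher, beside 6.55% of all genes. The glucosidase gene tobi (target of brain insulin, FBgn0261575, chromosome 3R, 25344761 to 25346921 on the minus strand) is known to respond to dietary protein and sugar through insulin-like and glucagon-like hormones. It had an RPKM of 3.69 in wild type control, 36.6 in wild type paraquat, 277 in mutant control and 231 in mutant paraquat, and it was 6.31-fold higher under paraquat (6.04 to 6.6). It overlaps the annotated gene rha. The amylase gene Amy-p had 109 (wild type) and 266 RPKM (mutant) with paraquat, against 54.4 and 310.0 without it, and as a near-identical copy of Amy-d it may lose or share reads. The maltase gene Mal-A3 had 4.2 and 9.97 RPKM in the wild type without and with paraquat and 33.4 and 28.5 in the mutant. Amyrel was higher by 1.67, from 8 reads in the wild type and 128 in the mutant.

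Serine proteases of the gut went both ways, with 4 higher and 5 lower of 29, beside 2.30% and 2.70% of all genes. Their median was −0.30. Besides Ser12, Jon44E was higher by 1.13 in the mutant. The lower ones were led by Jon25Bii, Jon65Aii and Jon99Fii, which encode chymotrypsin-like enzymes of the midgut. Jon65Aii had 110.0 RPKM in the wild type and 19.98 in the mutant under paraquat, beside 75.9 and 35.5 in their controls. Jon99Fii had an RPKM of 182 in wild type control, 196 in wild type paraquat, 76.5 in mutant control and 42.3 in mutant paraquat. Jon25Bii differed from these, with 191 (wild type) and 35.4 RPKM (mutant) with paraquat, against 32.5 and 85.9 without it, so that it was higher in the mutant without paraquat and lower with it. The neighbouring trypsin genes betaTry and epsilonTry were lower by 1.17 and 1.04. Trypsin and Jonah genes have close copies, so their absolute levels from uniquely mapped reads are uncertain.

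Among the enzymes that clear foreign compounds, single members differed widely while the families as wholes lay near equality under paraquat. Of 56 genes at the minimum caught by the cytochrome P450 list, 7 were higher and 4 lower, with a median of 0.06, beside 5.00% of all genes called. The list also took in the cyclophilin genes Cyp1 and Cyp40 by their symbols. They differed by 0.03 and 0.22 under paraquat and passed the rule in neither condition. In control 17 of 55 were higher and 1 lower, with a median of 0.56, where 6.55% of all genes were higher. Cyp6a20 had 1.87 and 7.58 RPKM in the wild type without and with paraquat and 26.9 and 34.9 in the mutant. Cyp4e3 had 61.8 RPKM in the wild type and 181 in the mutant under paraquat, beside 13.9 and 87.4 in their controls. Cyp4d8 and Cyp6t3 were higher by 1.68 and 1.6. The 4 lower genes, Cyp6d4, Cyp4aa1, Cyp6a23 and Cyp28a5, differed by −1.37, −1.21, −1.19 and −1.16. Of these, Cyp6d4 and Cyp6a23 were higher in control, by 1.17 and 1.57. Of 35 glutathione S-transferases, 2 were higher and 1 lower, with a median of 0.02, beside the same 5.00% over all genes. In control 10 of 33 were higher and 1 lower, with a median of 0.53. GstE8 had an RPKM of 13.7 in wild type control, 14 in wild type paraquat, 29.6 in mutant control and 66.1 in mutant paraquat. GstD3 had 41.2 (wild type) and 119 RPKM (mutant) with paraquat, against 4.89 and 31.1 without it. GstD1, an abundant family member that paraquat is known to induce, did not pass the rule, with 72 and 385 RPKM in the wild type without and with paraquat and 289 and 486 in the mutant. Likewise GstD2 and GstD5 differed by −0.23 and 0.26 between the paraquat libraries, although each was far higher there than in the control libraries of the same genotype.

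UDP-glycosyltransferases, which add sugars to small molecules, had 2 members higher and 5 lower of 27, beside 5.00% of all genes called. Their median was −0.11. In control 10 of 26 were higher and 1 lower, beside 6.55% and 5.75% of all genes, with a median of 0.62. Ugt37A2 had 84.1 RPKM in the wild type and 12.7 in the mutant under paraquat, beside 4.21 and 10.7 in their controls. Its neighbour Ugt37A3 had an RPKM of 2.47 in wild type control, 87.6 in wild type paraquat, 6.11 in mutant control and 23.6 in mutant paraquat. For each of this pair the wild type fed paraquat stood above the other 3 libraries. Ugt36E1 had 11.6 (wild type) and 2.6 RPKM (mutant) with paraquat, against 22.1 and 2.19 without it, lower in both mutant libraries, and overlaps another annotated gene. Ugt35C1 had 3.29 and 14.3 RPKM in the wild type without and with paraquat and 36.7 and 48.8 in the mutant. The efflux transporter gene Mdr50, chosen after its values were seen, had 17.5 RPKM in the wild type and 1.96 in the mutant under paraquat, beside 1.77 and 2.04 in their controls, and its wild type paraquat level was 8.93-fold above that of the mutant (7.96 to 10.1).

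Metallothioneins, small proteins that bind copper, zinc and cadmium, were split within a family of 6. MtnE had an RPKM of 3.7 in wild type control, 31 in wild type paraquat, 71.8 in mutant control and 151 in mutant paraquat. Its neighbour on chromosome 3R, MtnD, had 28.4 (wild type) and 94.4 RPKM (mutant) with paraquat, against 1.79 and 29.6 without it. The mutant was higher for both, with and without paraquat. MtnA had 349.6 and 1067 RPKM in the wild type without and with paraquat and 242 and 476 in the mutant. MtnB had 95.2 RPKM in the wild type and 27.2 in the mutant under paraquat, beside 17.4 and 10.6 in their controls. This other pair was lower in the mutant by 1.16 and 1.77 under paraquat, and differed by −0.53 and −0.67 in control, short of the rule. Each of these 4 genes was higher with paraquat than without it in both genotypes.

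Several short lists bear on oxidative stress, and with 5.00% of all genes called, 0 calls in a list of this size is near the share over all genes. None of 13 antioxidant enzyme genes passed the rule, and their median was −0.03. Sod1, the cytosolic superoxide dismutase, had an RPKM of 159 in wild type control, 175 in wild type paraquat, 175 in mutant control and 157 in mutant paraquat. Cat, catalase, had 124 (wild type) and 117 RPKM (mutant) with paraquat, against 64.1 and 113 without it. Peroxiredoxin gene Prx2 differed by 0.13. None of 6 genes of Nrf2, Keap1 and glutathione synthesis passed it either, with a median of 0.03, among them the glutathione synthesis gene Gclm at 0.39 and ref(2)P, the autophagy receptor, at −0.66. None of 12 endoplasmic reticulum stress genes and none of 8 foxo and insulin signalling genes passed the rule. Thor, the translation repressor that foxo induces, had 201 and 325 RPKM in the wild type without and with paraquat and 98.5 and 299 in the mutant, lower in the mutant without paraquat and near equal with it. Of 10 heat shock protein genes 9 were above 0, with a median of 0.39, and 1 passed the rule, Hsp67Bc, higher by 1.03. In the list of JNK targets, death genes and DNA damage genes 1 of 14 was lower, the death gene reaper, rpr, with 6.91 RPKM in the wild type and 1.18 in the mutant under paraquat, beside 1.67 and 1.57 in their controls. The stress genes Gadd45 and Xrp1, which respond to DNA damage and translation stress, differed by −0.32 and −0.24 between the paraquat libraries, while both were higher with paraquat than without in each genotype.

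Among lists with at least 10 genes at the minimum, transcripts of the mitochondrial genome had the largest share past the rule in 1 direction. Of 15 at the minimum, 7 (46.7%, beside 2.70% of all genes) were lower in the mutant and 0 higher, with a median of −0.75. Most of these genes encode subunits of the respiratory chain, and they are transcribed as long precursors that are cut into single RNAs. The complex I gene mt:ND2 had an RPKM of 5.3 in wild type control, 107 in wild type paraquat, 6.34 in mutant control and 11.4 in mutant paraquat, and it was 9.44-fold lower in the mutant under paraquat (8.44 to 10.6). The adjacent transcripts mt:ND3, mt:ND5 and mt:ND4 differed by −1.81, −2.35 and −1.44, from 469 and 133 RPKM, 640.4 and 125 RPKM and 810.4 and 298 RPKM in wild type and mutant. The ATP synthase gene mt:ATPase6, which overlaps mt:ATPase8, had 7469 (wild type) and 2572 RPKM (mutant) with paraquat, against 956 and 1560.0 without it. mt:Cyt-b had 856 and 5297 RPKM in the wild type without and with paraquat and 1142 and 2165 in the mutant. In contrast mt:CoII and the large ribosomal RNA mt:lrRNA differed by 0.09 and 0.16, so the transcripts of this genome did not differ by one common factor. In control the median of the same list was 0.71, beside −0.19 for all genes. There 5 were higher and 0 lower, beside 6.55% and 5.75% of all genes. The small ribosomal RNA mt:srRNA is listed at 85.1 RPKM in the wild type and 33.2 in the mutant under paraquat, far below mt:lrRNA. Libraries were selected for poly-A. Of 64 nuclear genes of the respiratory chain 0 passed the rule, with a median of 0.01, beside 5.00% called over all genes. None of 69 mitochondrial ribosomal protein genes passed it either.

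**Figure D4:**
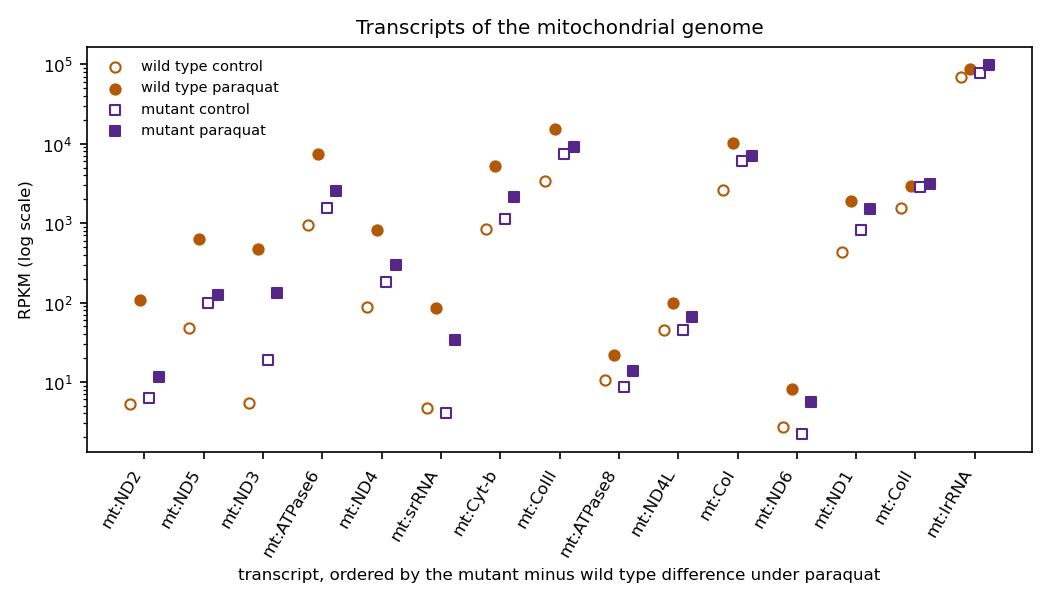
The RPKM, on a log axis, of the 15 transcripts of the mitochondrial genome at the minimum in each of the 4 libraries, ordered by the mutant minus wild type difference under paraquat. Filled circles, the wild type fed paraquat, lie highest for all but mt:CoII and mt:lrRNA, for example 107 RPKM against 11.4 in the mutant for mt:ND2.

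Genes of the egg and its shell were unevenly placed. The eggshell is laid down by follicle cells, which make the vitelline membrane first and the chorion last. Of 21 genes caught by this list, 3 were higher and 1 lower, beside 2.30% and 2.70% of all genes. The list also took in the centrosomal genes Cp190 and Cp110 by their symbols, at 0.22 and 0.37. The list median of 0.22 is the value of Cp190 itself, so it does not measure a shift of eggshell genes. The neighbours yellow-g and yellow-g2 are follicle cell genes needed for a firm eggshell. The former had 0.575 RPKM in the wild type and 16.6 in the mutant under paraquat, beside 22.3 and 40.2 in their controls. The latter had an RPKM of 45.2 in wild type control, 0.186 in wild type paraquat, 92.7 in mutant control and 28 in mutant paraquat. In the wild type fed paraquat yellow-g2 held 8 reads against 1214 in the mutant, a 151-fold difference (76.3 to 350.3), and yellow-g overlaps CG32302. The chorion gene Cp19 had 78.1 (wild type) and 254 RPKM (mutant) with paraquat, against 865 and 513 without it, and Cp16, Cp15 and Cp18 differed by 0.88, 0.10 and −0.40. The vitelline membrane genes Vm26Aa, Vm26Ab and Vm34Ca differed by −0.65, −0.99 and −0.75, while Vm26Ac was at 0.62 and the other early shell genes fs(1)M3 and fs(1)N were at 0.88 and 0.49, none past the rule. The follicle cell gene Fcp3C had 30.4 and 23.5 RPKM in the wild type without and with paraquat and 24.6 and 4.04 in the mutant, low in the mutant fed paraquat alone. Since RNA came from whole flies, fewer follicle cells of a stage and less RNA per cell cannot be told apart, here and for each tissue below.

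Several other genes shared the pattern of yellow-g, with the wild type fed paraquat far below the other 3 libraries. CG13114 (FBgn0032127, chromosome 2L, 9545811 to 9547424 on the plus strand of BDGP6) had 0.15 RPKM in the wild type and 38.7 in the mutant under paraquat, beside 41.1 and 75 in their controls. It held 7 reads in the wild type fed paraquat and 1818 in the mutant, a 258-fold difference (125 to 643), and reads covered 14.99% of its length in the first and 94.3% in the second. Its neighbour CG13113 was 80.9-fold higher in the mutant, from 3 and 244 reads, with an interval of 27.3 to 395. The longest run of neighbouring genes higher in the mutant, CG15571, CG15570, Femcoat and Muc4B, spans 29267 bases of chromosome X (4216873 to 4246139). CG15571 had an RPKM of 34 in wild type control, 0.663 in wild type paraquat, 24.9 in mutant control and 24.3 in mutant paraquat. CG15570 had 0.0737 (wild type) and 11.9 RPKM (mutant) with paraquat, against 16.4 and 11.9 without it. These levels set the wild type fed paraquat apart from 3 like values. The mucin gene Muc4B had 30.6 and 1.18 RPKM in the wild type without and with paraquat and 44.1 and 23.1 in the mutant. CG4009, chosen after its values were seen, had 2.17 RPKM in the wild type and 20.6 in the mutant under paraquat, beside 40.2 and 39.9 in their controls, and its level in the mutant fed paraquat lay between the extremes. Of the neighbours CG13084 and CG13083, the first had an RPKM of 104 in wild type control, 8.69 in wild type paraquat, 60.5 in mutant control and 53.8 in mutant paraquat. The second had 20.9 (wild type) and 66.1 RPKM (mutant) with paraquat, against 173 and 74.7 without it.

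Yolk, germline and cell cycle genes lay mildly above equality as groups. All 5 members of the list of yolk proteins and female fat body were above 0, with a median of 0.62, and 1 passed the rule. This was fit, a female fat body gene that responds to feeding, with 27.8 and 3.65 RPKM in the wild type without and with paraquat and 41.9 and 10.04 in the mutant, and it overlaps CG31465. For the yolk proteins the differences were 0.57 (Yp1), 0.43 (Yp2) and 0.68 (Yp3), short of the rule, and both genotypes had less of them with paraquat than without. Of 18 female germline genes, 15 were above 0, but 1 passed the rule and it was dhd, which was lower. None of 14 piRNA pathway genes passed it, with piwi at 0.36 and a median of 0.39. None of 22 DNA replication and cell cycle genes passed it, with PCNA at 0.22 and RnrS at 0.19. Over all genes 5.00% were called. The medians of the germline and the replication lists were 0.28 and 0.21 under paraquat, beside 0.08 for all genes. They were −0.87 and −1.05 in control, beside −0.19 for all genes. In control 15 of the 22 replication genes were lower, beside 5.75% of all genes.

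Markers of some somatic tissues lay the other way, and their values stand beside all the results above. All 11 neuron genes were below 0 under paraquat, with a median of −0.49. Of them 0 passed the rule, near the 5.00% called over all genes. Their summed RPKM was 81.9 in the wild type and 51.9 in the mutant. Of 19 muscle sarcomere genes 17 were below 0, with a median of −0.42 and a summed RPKM of 10866 against 7464. Of these, 1 passed the rule, Mlp60A, a muscle LIM protein gene, with 67.7 RPKM in the wild type and 25.7 in the mutant under paraquat, beside 36.9 and 24.4 in their controls. Of 16 photoreceptor genes 15 were below 0, with a median of −0.26, and the rhodopsin gene ninaE differed by −0.21. Not all somatic lists lay below 0. Of 9 haemocyte genes 8 were above 0, with a median of 0.18. The 4 fat body and oenocyte genes had a median of 0.31, with 2 above and 2 below 0. The 5 Malpighian tubule genes had a median of −0.47. In the control pair the medians of the neuron and muscle lists were 0.23 and 0.94, beside −0.19 for all genes. For the female germline list the summed RPKM under paraquat was 1769.7 in the wild type and 1371 in the mutant, where dhd alone accounts for more than the difference. The part of tissue content in the gene differences was not tested. Of 37 male accessory gland and testis genes seen in any library 6 reached the minimum, and the 2 of highest RPKM among them, Acp1 and Acp65Aa, are adult cuticle protein genes that the list caught by symbol. Mst89B was higher by 1.14, from 2 and 54 reads.

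Cuticle and odorant-binding genes had medians below 0 under paraquat and above 0 in control. Over all genes 2.70% were lower and 2.30% higher under paraquat, and 5.75% and 6.55% in control. The medians of all genes were 0.08 under paraquat and −0.19 in control. Of 32 cuticular protein genes at the minimum, 6 were lower and 3 higher under paraquat, with a median of −0.47. In control 2 were lower and 14 higher of 31, with a median of 0.93. Cpr49Ag had an RPKM of 8.47 in wild type control, 12.4 in wild type paraquat, 3.24 in mutant control and 3.81 in mutant paraquat. Ccp84Ab had 8.32 (wild type) and 2.53 RPKM (mutant) with paraquat, against 1.22 and 3.38 without it. On the higher side Cpr51A had 0.405 and 0.561 RPKM in the wild type without and with paraquat and 3.1 and 2.97 in the mutant. Acp1 had 124 RPKM in the wild type and 52.2 in the mutant under paraquat, beside 24.9 and 84.5 in their controls. Acp65Aa had an RPKM of 181 in wild type control, 662 in wild type paraquat, 213 in mutant control and 234 in mutant paraquat. The wild type fed paraquat was highest for both. The same was true of CG13065, with 20.1 (wild type) and 0.737 RPKM (mutant) with paraquat, against 1.3 and 6.77 without it, and of the run CG4962, CG13044 and CG13043 on chromosome 3L (16294711 to 16305870). CG13044 had 2.49 and 40.4 RPKM in the wild type without and with paraquat and 4.31 and 3.49 in the mutant. CG13043 had 12.7 RPKM in the wild type and 0.586 in the mutant under paraquat, beside 0.886 and 0.602 in their controls. Of 24 odorant-binding protein genes, whose products carry small hydrophobic molecules in sense organs and elsewhere, 6 were lower and 1 higher, with a median of −0.52, and in control 3 were lower and 7 higher of 26, with a median of 0.49. Obp57a had an RPKM of 85.7 in wild type control, 111 in wild type paraquat, 21.1 in mutant control and 18.2 in mutant paraquat. Obp44a had 86 (wild type) and 31.2 RPKM (mutant) with paraquat, against 23.4 and 33.1 without it. Obp56b had no read in either mutant library and 38 in the wild type fed paraquat, at least 12.7-fold lower in the mutant when 3 reads are taken as the floor, while the lower end of its counting interval is 9.87-fold.

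In the other metabolic lists few genes passed the rule, as over all genes, of which 5.00% did. Of 13 lipid synthesis and storage genes 2 were lower, Fad2 and the triglyceride synthesis gene Dgat2, which had 0.669 and 7.99 RPKM in the wild type without and with paraquat and 1.28 and 1.67 in the mutant. None of 11 glycolysis genes, 17 vacuolar proton ATPase genes, 6 iron storage and transport genes or 18 autophagy genes passed it. The ferritin genes Fer1HCH and Fer2LCH differed by −0.29 and −0.20, and both were higher with paraquat than without in each genotype. Cytosolic ribosomal protein genes were evenly shifted, with 78 of 79 above 0 and a median of 0.36. Of them 2 passed the rule, the ovary-rich duplicates RpS19b and RpS5b, and both mutant libraries lay above both wild type ones for each. RpS19b had 0.216 RPKM in the wild type and 4.12 in the mutant under paraquat, beside 0.312 and 5.55 in their controls. RpS5b had an RPKM of 276 in wild type control, 178 in wild type paraquat, 364 in mutant control and 374 in mutant paraquat. Of 32 proteasome genes 1 was lower, the variant subunit gene Rpt6R, with 1.66 (wild type) and 0.138 RPKM (mutant) with paraquat, against 0.0954 and 0.118 without it. The larval serum protein gene Lsp2 had 10.6 and 39.2 RPKM in the wild type without and with paraquat and 149 and 120.1 in the mutant. The gene ry, encoding xanthine dehydrogenase, had 3.75 RPKM in the wild type and 14.2 in the mutant under paraquat, beside 2.91 and 21.1 in their controls. The juvenile hormone binding protein gene Jhbp5 was lower by 1.56 and was lowest in the mutant fed paraquat.

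**Figure D5:**
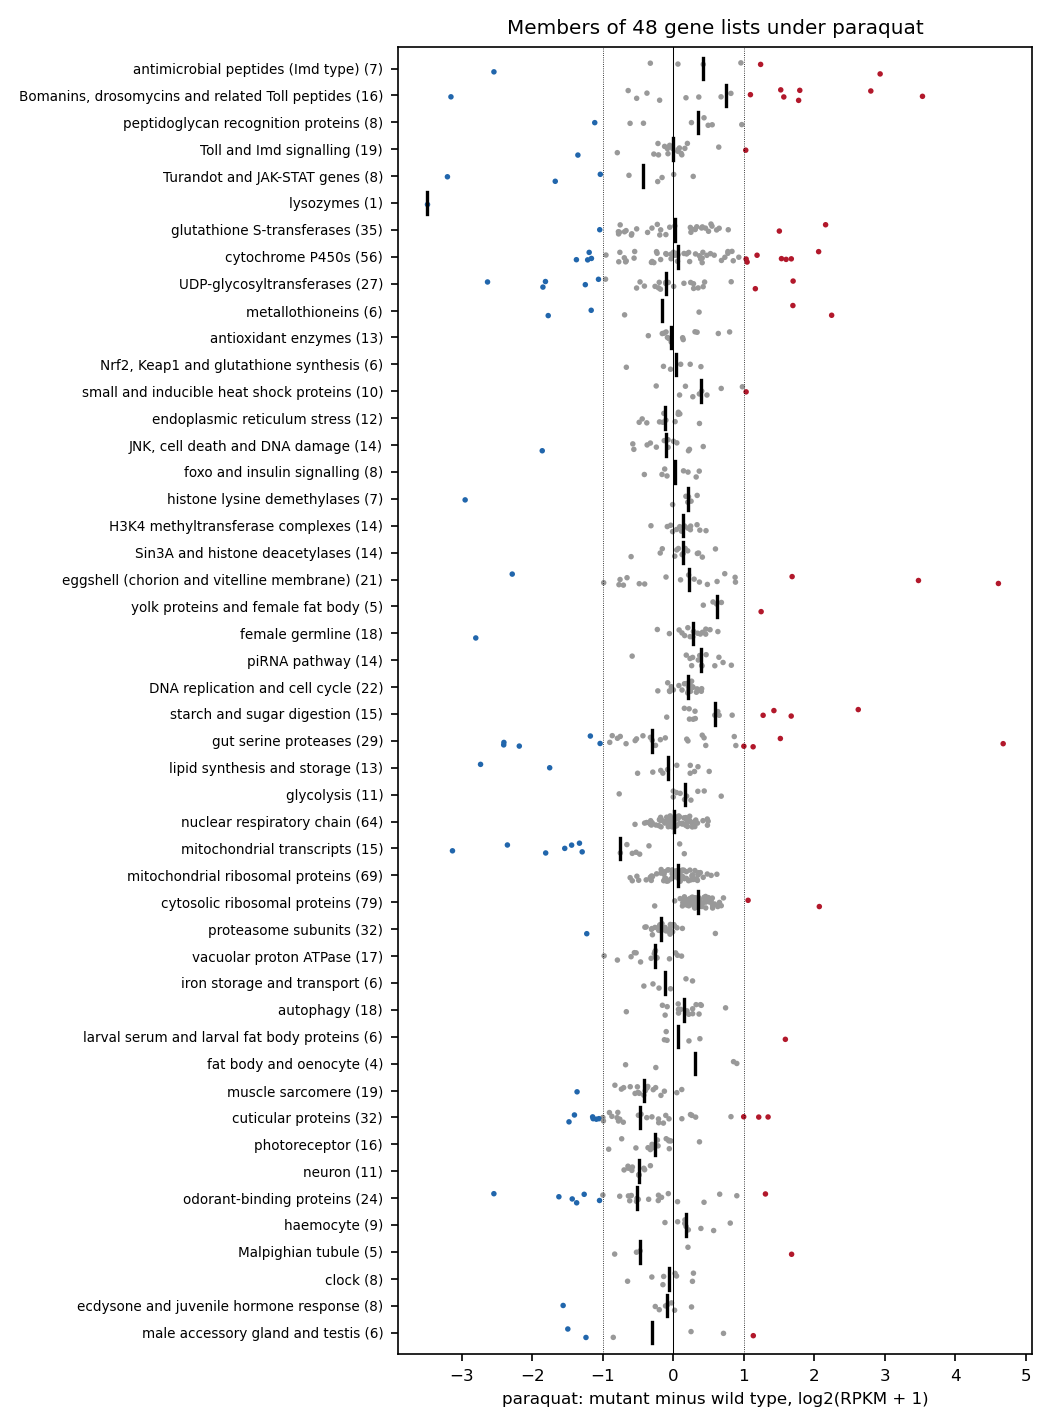
The mutant minus wild type difference of log2(RPKM + 1) under paraquat for each member of 48 gene lists, with the number of members at the minimum in brackets and a black bar at each list's median. Red points were called higher and blue points lower, and dotted lines mark the size rule of 1. Medians range from −3.50 for the single lysozyme gene to 0.75 for the Toll peptides.

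Chromatin factors that work with or against KDM5 were looked at in lists of 14 genes, where 0 calls is near the 5.00% called over all genes. None of 14 genes of complexes that methylate lysine 4 of histone H3 passed it, with wds at 0.38 and a median of 0.14. None of 14 Sin3A and histone deacetylase genes passed it, with HDAC1 at 0.05, Sirt1 at 0.02 and a median of 0.13. In control HDAC1 and Sirt1 were lower by 1.07 and 1.05, and their wild type control levels were the highest of the 4 libraries.

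Non-coding RNA genes were called more often than protein-coding ones, at 16.3% of 86 (9 higher and 5 lower) against 4.93% of 8081. Besides the pair described first, lncRNA:CR43417 had an RPKM of 2.18 in wild type control, 2.03 in wild type paraquat, 12.8 in mutant control and 11.2 in mutant paraquat. The RNA lncRNA:roX1, known for its part in male dosage compensation, was singled out after its values were seen. It had an RPKM of 7.23 and 8.47 in the wild type without and with paraquat and of 30.01 and 27.7 in the mutant. By chromosome arm, higher and lower genes made up 2.47% and 2.33% of 1459 genes on 2L and 2.96% and 3.01% of 1692 on 2R. They were 2.26% and 3.45% of 1593 genes on 3L and 2.39% and 2.93% of 2051 on 3R. On X they were fewer, 1.59% and 1.37% of 1317. Of 192 higher genes with a position, 41 (21.4%) had a higher gene as their nearest tested neighbour on one side or the other, where 4.48% of all tested genes had one. Of 226 lower genes with a position, 59 (26.1%) had a lower neighbour against 5.20% of all tested genes. Runs of 3 or more such neighbours numbered 2 for higher and 7 for lower genes.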

How the data were processed

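Whole-fly poly-A RNA was sequenced in 4 libraries, 1 per group, prepared with a TruSeq kit according to the labels' protocols. Cufflinks and the build dm3 are named in the submitters' processing notes. An aligner, an annotation release and the use of strand in counting are not given in the sources consulted. The deposited read counts are uniquely mapped reads per FlyBase gene, per the file headers, and sum to the totals that the headers give. The deposited RPKM values equal those counts divided by the deposited gene length and library total, with a largest relative gap of 5.13e-07. That deposited gene length lay within 5% of the whole gene span of BDGP6, introns included, for 91.1% of 11667 genes. Levels of genes with long introns are thus understated, while RPKM ratios of one gene between libraries are not. Such genes lie nearer to or below the minimum, and their differences of log2(RPKM + 1) are made smaller. The deposited coverage, per the file headers, gives how much of a gene had reads, in percent. Identifiers missing from a library, 665 to 834 of 12073, were taken as 0 reads.

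Differences of log2(RPKM + 1) were computed from the deposited values with Python 3.11.15, pandas 2.3.3 and scipy 1.17.1, and figures drawn with matplotlib 3.10.9. The size rule was also run on simulated counts with Poisson noise alone. These hold no spread between flies or libraries, so the simulation is no support for the genes called. A gene was tested at RPKM of at least 1 in either library. Symbols matched 11667 identifiers, and 406 had none. Positions are from BDGP6, not the authors' build, and of 148 genes named by rule 35 overlap another annotated gene, whose reads cannot be told apart. The rule named the 15 furthest on each side with RPKM of at least 5, 10 on each side called in both conditions, up to 6 per side called in opposite directions, up to 4 members per list past the rule (2 of highest level where none passed), Kdm5, its neighbours and 3 genes on each side of the minimum. Members, the 49 lists and the rule were chosen with earlier results of these data known, and genes outside the rule were chosen after their values were seen. Promoter motifs were not analysed here. Alternatives were other pseudocounts, minimums, library scalings and depth-scaled reads without division by length.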

Additional observations from a re-analysis of the deposited data

Results flagged for a closer look

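The genes below passed the size rule in opposite directions with and without paraquat, which is what brought them up. With 1 library per group the difference between the conditions was not tested, and no explanation was weighed. Values are mutant minus wild type differences of log2(RPKM + 1).

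Among genes lower in the mutant under paraquat and higher without it, CG13065 had −3.60 under paraquat and 1.76 in control. For Ugt37A2, a sugar-transferring detoxification enzyme gene, the differences were −2.63 under paraquat and 1.17 in control, and for its neighbour Ugt37A3 they were −1.85 and 1.03. The gut protease gene Jon25Bii had −2.40 under paraquat and 1.38 in control. The mitochondrial complex I genes mt:ND5 and mt:ND3 had −2.35 and −1.81 under paraquat, and 1.03 and 1.64 in control. CG8736 had −1.92 and 1.81, CG11458 had −1.84 and 1.27, and CG12998 had −1.29 and 1.49. The adult cuticle protein gene Acp1 had −1.24 under paraquat and 1.72 in control.

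The genes higher in the mutant under paraquat and lower without it were CG13083, with 1.61 and −1.20, CG1077, with 1.54 and −1.32, and Femcoat, with 1.54 and −1.20. CG1077 rested on 5 reads in the wild type fed paraquat.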

How the results depend on the processing

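The pseudocount moved the counts most. With a pseudocount of 0.1 in place of 1, 272 genes were higher and 359 lower, and with 5 they were 91 and 113. Genes called the same way in both conditions, 222 as reported, numbered 302 and 96. A minimum RPKM of 5 gave 144 higher, 168 lower and 145 called the same way in both conditions, and fewer genes are tested there by construction. With no minimum RPKM the 3 counts were as reported. Across the scalings (median ratio, upper quartile, totals without mt:lrRNA) and depth-scaled reads not divided by length, 176 to 234 genes were higher and 240 to 290 lower, and the share of called genes that were higher was 39.8% to 46.7%. Upper-quartile scaling shifted the median of all genes by −0.08, to −0.00208, with no scaling shifting it by over 0.1. Of 103 named genes past the rule, 24 were no longer past it with a pseudocount of 5, 3 with upper-quartile scaling (Hsp67Bc, imd and RpS5b) and 3 without division by length (TotM, Cpr67Fb and PGRP-SC1a). None of the 103 past the rule changed direction under the alternatives run, whereas named genes near 0 can change sign with the scaling. Medians of lists near 0 changed sign, up to 8 of them with upper-quartile scaling, where those of cytochrome P450s and glutathione S-transferases became −0.01 and −0.04. No paired analysis was possible because each group has 1 library, and for the same reason no replicate could be left out. Genes with at most 3 reads in the other library, 17 higher and 17 lower, have folds that depth limits.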
